A study of Mus musculus with 4 samples.

Results

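The interferon response genes examined here are the receptors for type I and type II interferon, the transcription factors of the pathway and genes known to be induced by it. They were chosen by symbol from a list of 49 names, all 49 of which were among the 12661 genes analysed. RNA came from tissue lying outside the femoral artery, mainly perivascular adipose tissue (PVAT), of 11-week-old ovariectomized wild type C57BL/6 female mice. In the injury group the femoral artery was injured by insertion of a 0.38 mm spring wire, and in the sham group the animals had a sham operation, with tissue collected 48 h later and 2 libraries per group. Ovariectomy was common to both groups, so no library comes from mice with intact ovaries. The sources used here do not say whether a library comes from 1 mouse or from pooled tissue, and p-values measure the spread between these libraries only.

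Type I interferons bind a receptor made of IFNAR1 and IFNAR2, and the kinases on it activate STAT2, which acts with IRF9 at the interferon-stimulated response element (ISRE) of target genes. Type II interferon, IFN-γ, binds IFNGR1 and IFNGR2 and acts mainly on another element, GAS. The induced genes encode antiviral enzymes, GTPases that attack intracellular pathogens and parts of the machinery that loads peptides on MHC class I. In adipose tissue adipocytes, stromal and endothelial cells and leukocytes can all respond. The comparison asks how these genes differed in injured and sham-operated PVAT.

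Values are given in deposited units. Each is a signed number on a log-like scale whose base and zero point are not stated, so a difference is not a fold change, and the level of one gene cannot be compared with that of another. Over all genes the values ran from -2.27 to 6.45 with 50.5% below 0, and the library medians lay between -0.0062 and -0.0028. The read depth of each library is unknown. Markers of adipocytes, 10 of 10, were among the genes analysed, with a median difference of -0.13 between groups, but their abundance cannot be read from these values.

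The sequence before the start of a gene shows where the pathway could act, and those of 4 genes on which the results turn are shown. The 250 bases before the start are given 5′ to 3′ on the strand of the gene, from RefSeq on GRCm38.p6, with matches to the core letters of the ISRE in capitals. These letters are GAAA, any 2 bases and GAAA, or on the other strand TTTC, any 2 bases and TTTC. *Rsad2* is a called gene with a match, *Isg15* is an uncalled gene with 3 overlapping matches, and *Irf5* and *Ifngr2* are called genes with none in this window.
*Rsad2*, chr12:26456453-26456702, minus strand: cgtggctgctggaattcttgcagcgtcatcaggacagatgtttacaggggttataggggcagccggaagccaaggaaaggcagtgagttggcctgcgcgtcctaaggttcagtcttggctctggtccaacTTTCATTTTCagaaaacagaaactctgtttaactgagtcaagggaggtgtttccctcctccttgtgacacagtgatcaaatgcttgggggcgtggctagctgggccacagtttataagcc
*Isg15*, chr4:156200819-156201068, minus strand: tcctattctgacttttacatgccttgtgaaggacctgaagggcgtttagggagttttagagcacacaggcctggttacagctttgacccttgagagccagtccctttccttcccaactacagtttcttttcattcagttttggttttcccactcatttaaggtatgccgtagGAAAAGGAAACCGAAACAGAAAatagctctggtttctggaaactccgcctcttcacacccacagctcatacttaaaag
*Irf5*, chr6:29526375-29526624, plus strand: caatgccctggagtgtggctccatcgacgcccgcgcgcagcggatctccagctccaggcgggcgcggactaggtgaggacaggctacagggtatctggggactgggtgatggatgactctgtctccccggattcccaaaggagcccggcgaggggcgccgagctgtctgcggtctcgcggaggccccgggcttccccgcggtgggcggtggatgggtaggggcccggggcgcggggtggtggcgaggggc
*Ifngr2*, chr16:91546809-91547058, plus strand: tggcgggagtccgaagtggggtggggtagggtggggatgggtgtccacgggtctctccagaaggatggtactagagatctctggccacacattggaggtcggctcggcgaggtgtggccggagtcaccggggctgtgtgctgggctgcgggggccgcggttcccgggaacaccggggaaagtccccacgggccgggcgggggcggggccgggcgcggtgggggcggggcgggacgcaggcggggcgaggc

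RefSeq promoter windows, from 250 bases before to 50 bases after the start, were at hand for 41 of the 49 genes, as 46 windows. *Dhx58*, *Usp18*, *Iigp1*, *Oas2*, *Parp14*, *Mx1*, *Mx2* and *Tap2* had no entry. The ISRE letters were found on either strand in 20 of the 41 genes (48.8%), against 3.99% of all genes of the same table and 3.44% of its 32851 windows. All 5 GTPase genes with a window held them, as did 8 of 15 antiviral effectors, 2 of 8 factors and 0 of 4 receptors. The letters TTCNNNGAA, the core of GAS, which reads the same on both strands, were found in 14 of the 41 genes (34.1%) against 9.55% of all genes. Places of the 2 motifs may overlap. A match is a description of letters and not evidence of binding.

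Short windows around a match are shown for genes of each role that held one, with the matched letters in capitals and the strand chosen so that the match starts and ends with GAAA. Coordinates are those of GRCm38.p6, and the strand named is that of the gene.
*Stat2*, chr10:128270266-128270295, plus strand: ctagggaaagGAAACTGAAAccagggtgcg
*Ddx58*, chr4:40239804-40239833, minus strand: ctggccatagGAAATCGAAActgcctcagg
*Ifit3*, chr19:34583397-34583426, plus strand: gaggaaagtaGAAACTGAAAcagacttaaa
*Oas3*, chr5:120777715-120777744, minus strand: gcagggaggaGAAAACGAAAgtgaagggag
*Ifitm2*, chr7:140955988-140956017, minus strand: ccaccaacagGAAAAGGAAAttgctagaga
*Ifitm3*, chr7:141010706-141010735, minus strand: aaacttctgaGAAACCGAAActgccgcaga
*Gbp2*, chr3:142620594-142620623, plus strand: ttaagacagtGAAAGTGAAActaaaagagt
*Irgm1*, chr11:48871425-48871454, minus strand: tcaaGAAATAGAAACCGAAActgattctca
*B2m*, chr2:122147538-122147567, plus strand: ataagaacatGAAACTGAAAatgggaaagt
Genes with a match had a median difference between injury and sham of 0.46 units (20 genes, 1 called), and genes without one a median of 0.52 (21 genes, 3 called), where 3.76% of all genes were called higher. With injury replicate 1 left out these medians were 0.011 and 0.33, and with injury replicate 2 left out 0.90 and 0.89, which turned their order. The groups did not overlap, with injury higher, in 8 of the genes with a match and in 15 of those without, against 31.6% of all genes.

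Of the 49 genes, 5 were higher after injury by limma with Benjamini-Hochberg adjustment over all 12661 genes (adjusted p under 0.05), against a background of 3.76% of all genes called higher and 7.43% called in either direction. They were *Rsad2*, *Irf5*, *Oas2*, *Ifitm6* and *Ifngr2*, an antiviral enzyme, a transcription factor, a synthetase, a membrane protein and a receptor chain. By the same test 0 were lower, against 3.67% of all genes, and at an unadjusted p under 0.05 there were 17 higher (14.8% of all genes) and 0 lower. The median difference of the 49 genes was 0.48 units, and that of all genes was 0.0085. Means were higher after injury in 44 of the 49 genes, against 50.9% of all genes. In 27 genes both injury libraries lay above both sham libraries (31.6% of all genes), and in 1 gene, *Ifitm2*, both lay below (30.3% of all genes), which makes 28 without overlap in either direction (61.9% of all genes). With 2 libraries against 2, exact permutation of one gene cannot give a p under 0.333, so these calls rest on the variance that limma shares across genes.

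**Figure D1:**
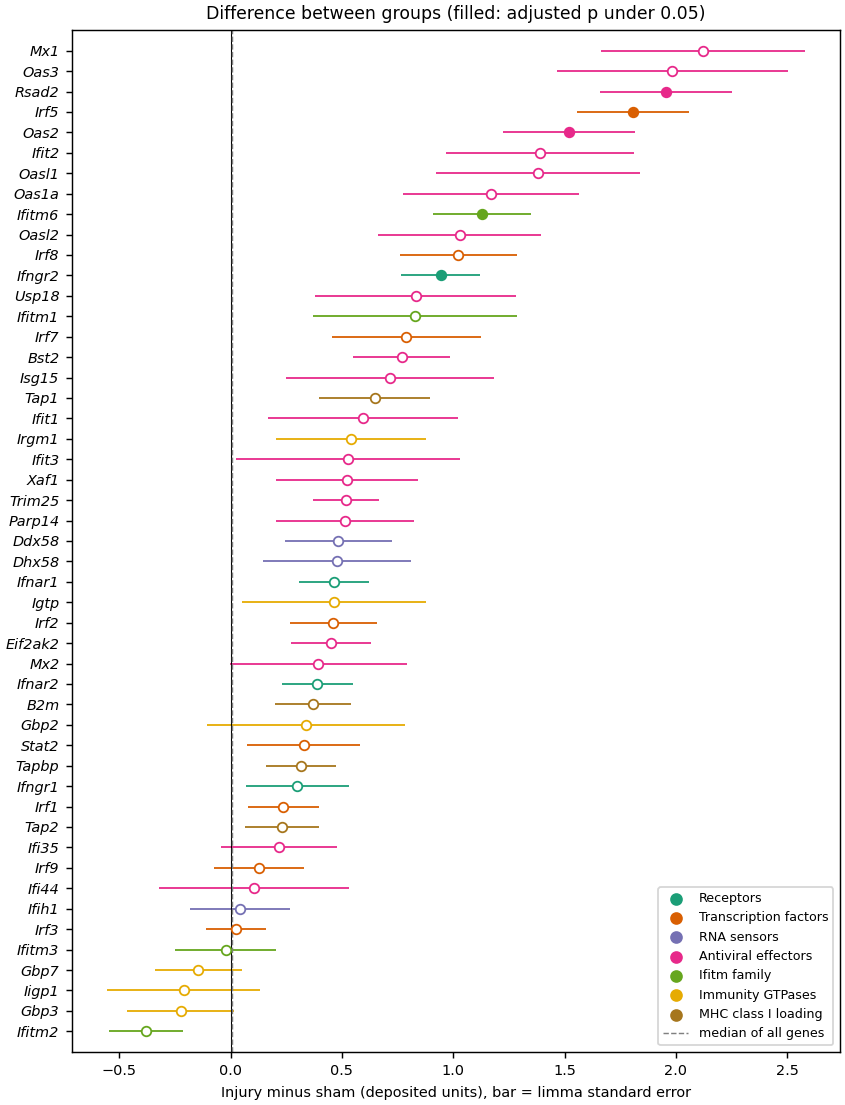
The difference between injury and sham means (x axis, deposited units) for each of the 49 genes, ordered by size, with bars of 1 limma standard error, colours for roles and filled points for genes with an adjusted p under 0.05. With all 4 libraries the highest difference was that of *Mx1* at 2.12 and the lowest that of *Ifitm2* at -0.38, and the 5 called genes lie between 0.94 and 1.95.

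The calls depended on single libraries. Without injury replicate 2 the number of called genes among the 49 was 21, all higher, of 1790 called among all 12661 genes. Without injury replicate 1 it was 2 of 284 called, *Rsad2* (adjusted p = 0.0451 from limma) and *Irf5* (adjusted p = 0.0442 from limma). Without sham replicate 1 or sham replicate 2 it was 0, in fits that called 0 and 1 of all 12661 genes. The lone library of a group in such fits is assumed to vary like the others. Among the 5 called genes, the adjusted p from limma without a sham library ran from 0.116 for *Rsad2* without sham replicate 2 to 0.241 for *Oas2* and *Ifitm6* without sham replicate 1. Leaving out injury replicate 2 raised the median difference of the 49 genes to 0.96, and leaving out injury replicate 1 lowered it to 0.16.

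The injury libraries were not alike for these genes. Injury replicate 1 was the highest of the 4 libraries in 47 of the 49 genes, against 30.5% of all genes, the exceptions being *Ifngr1* and *Ifitm2*. It lay above injury replicate 2 in 48 of the 49 (48.9% of all genes), by a median of 0.71 units. In 20 genes injury replicate 1 was the highest while injury replicate 2 lay under the higher sham library, a pattern found in 10.7% of all genes. In 29 genes the injury libraries lay further from each other than the group means did, against 39.6% of all genes. The sham libraries differed too, with sham replicate 2 above sham replicate 1 in 41 of the 49 genes (48.4% of all genes) and by a median of 0.24. Both orders held together in 40 genes (24.7% of all genes). The medians over the 49 genes were -0.31 in sham replicate 1, -0.040 in sham replicate 2, 0.68 in injury replicate 1 and -0.021 in injury replicate 2, so the median of injury replicate 2 was 0.019 units from that of sham replicate 2. Genes of one pathway are not independent, so these counts are descriptions.

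**Figure D2:**
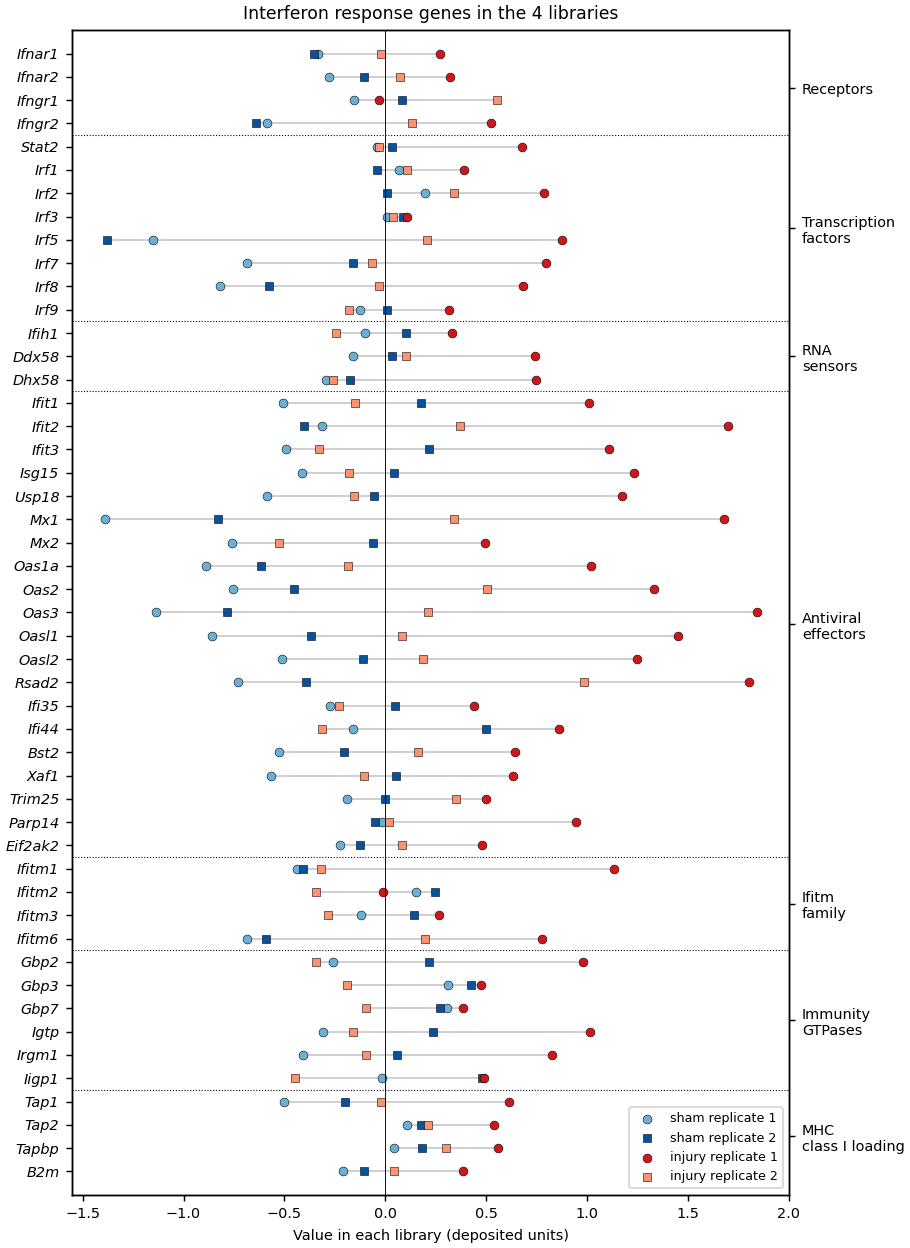
The value of each of the 49 genes (y axis, grouped by role) in each of the 4 libraries (x axis, deposited units), with 1 point per library and a grey line over the range. Injury replicate 1 is the point furthest to the right in 47 rows, and injury replicate 2 falls among or below the sham points in the rows of the GTPases and of *Ifit1*, *Ifit3*, *Isg15* and *Usp18*.

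**Figure D3:**
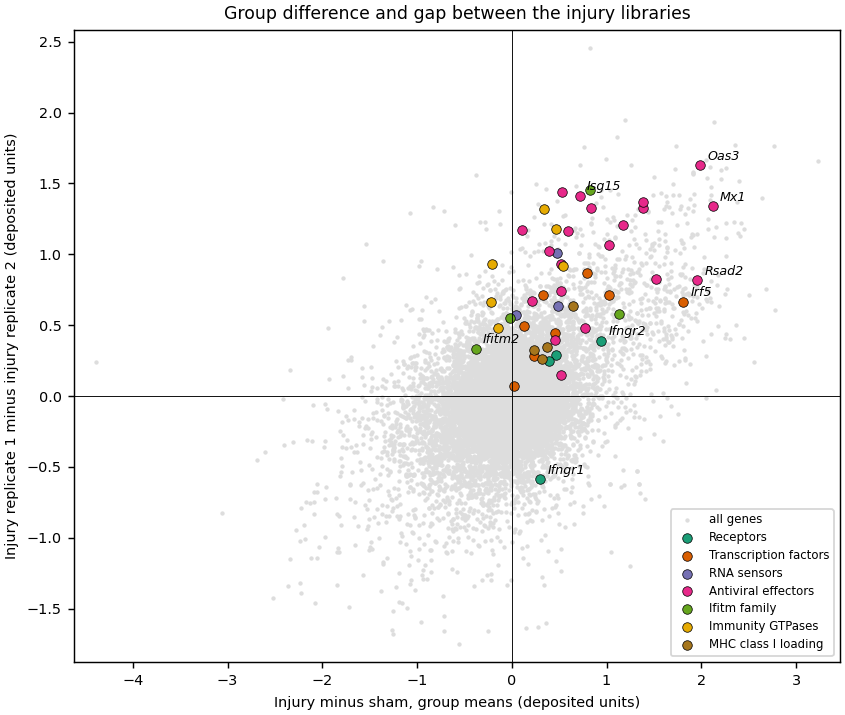
The gap between the injury libraries (y axis) against the difference between group means (x axis), both in deposited units, for all 12661 genes in grey and the 49 genes in colours by role. The 49 genes lie above 0 on the y axis except *Ifngr1*, and *Isg15* combines a wide gap with a difference of 0.71.

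Among the receptor chains, *Ifngr2* rose. *Ifngr2* encodes the signalling chain of the IFN-γ receptor and lies on chromosome 16 of mm9 from 91547317 to 91565414. It was at -0.59 and -0.64 in the sham libraries and at 0.52 and 0.13 in the injury libraries, with no overlap and both sham values close together. Injury exceeded sham by 0.94 (standard error 0.18, adjusted p = 0.0424 from limma). Over the alternatives with all 4 libraries the adjusted p ran from 0.0375 to 0.0510, so the call was lost in part of them. *Ifngr1*, the ligand-binding chain, was at -0.16 and 0.080 after sham operation and at -0.030 and 0.56 after injury. Here injury replicate 2 was the high library, injury replicate 1 lay between the sham libraries, and the difference of 0.30 was not called (adjusted p = 0.438 from limma). Without injury replicate 1 it was 0.59 and without injury replicate 2 it was 0.0073. *Ifngr1* was the one gene of the 49 in which injury replicate 2 exceeded injury replicate 1.

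The type I receptor chains were not called. *Ifnar1* was at -0.33 and -0.35 after sham operation and at 0.27 and -0.021 after injury. Its groups did not overlap, and the difference of 0.47 (standard error 0.16) had an unadjusted p of 0.0282 and an adjusted p of 0.125 from limma. *Ifnar2* was at -0.28 and -0.11 after sham operation and at 0.32 and 0.074 after injury. Its difference was 0.39 (adjusted p = 0.177 from limma), again without overlap. *Ifnar2*, *Ifnar1* and *Ifngr2* lie within one stretch of chromosome 16 of mm9, from 91373028 to 91565414.

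Of the 8 transcription factors, *Irf5* was called higher, as were 3.76% of all genes. *Irf5* encodes an interferon regulatory factor that acts in myeloid cells and B cells downstream of Toll-like receptors, and lies on chromosome 6 of mm9 from 29476625 to 29491869. It was at -1.15 and -1.38 in the sham libraries and at 0.87 and 0.21 in the injury libraries. The groups lay further apart than the libraries of either group, by 1.81 units (standard error 0.25, adjusted p = 0.0291 from limma). The adjusted p ranged from 0.0240 to 0.0358 over the alternatives with all 4 libraries. *Irf8*, needed for monocytes, macrophages and some dendritic cells to form, was at -0.82 and -0.58 after sham operation and at 0.68 and -0.034 after injury. These groups did not overlap, and the difference of 1.02 (standard error 0.26) missed the threshold with an adjusted p of 0.0740 from limma.

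*Irf7*, the factor that amplifies type I interferon production and is itself induced by interferon, was at -0.69 and -0.16 after sham operation and at 0.80 and -0.068 after injury. Injury replicate 2 was 0.094 units above sham replicate 2, and the difference of 0.79 was not called (adjusted p = 0.186 from limma). The factors of the type I receptor complex had small differences. *Stat2* was at -0.039 and 0.031 after sham operation and at 0.68 and -0.031 after injury, so 1 library was high. The difference of *Stat2* was 0.33 (adjusted p = 0.437 from limma), and it was -0.027 without injury replicate 1. *Irf9*, the DNA-binding partner of the STAT proteins, was at -0.13 and 0.010 after sham operation and at 0.32 and -0.18 after injury. Its difference was 0.13 (adjusted p = 0.719 from limma).

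*Irf1*, a factor induced by IFN-γ, was at 0.066 and -0.040 after sham operation and at 0.39 and 0.11 after injury, a difference of 0.24 (adjusted p = 0.377 from limma). *Irf2*, known as a repressor that competes with *Irf1* for its sites, was at 0.19 and 0.0082 after sham operation and at 0.78 and 0.34 after injury. Neither gene's groups overlapped, and *Irf2* had a difference of 0.46 (adjusted p = 0.189 from limma). *Irf3*, which is activated by phosphorylation and not by induction, was at 0.0087 and 0.090 after sham operation and at 0.11 and 0.039 after injury. Its 4 libraries spanned the narrowest range of the 8 factors, and the means differed by 0.025 (standard error 0.13, adjusted p = 0.917 from limma). The median difference over the 8 factors was 0.39 (with injury replicate 1 left out 0.17, with injury replicate 2 left out 0.68), and without *Irf5* it was 0.33.

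The sensors of viral RNA were not called. *Ddx58* (RIG-I) was at -0.16 and 0.034 after sham operation and at 0.74 and 0.10 after injury, a difference of 0.48 (adjusted p = 0.246 from limma). *Dhx58* (LGP2) was at -0.29 and -0.18 after sham operation and at 0.74 and -0.26 after injury, and *Ifih1* (MDA5) at -0.098 and 0.10 against 0.33 and -0.24. In the last pair injury replicate 2 lay among or below the sham libraries. The differences of *Dhx58* and *Ifih1* were 0.48 and 0.042 (adjusted p = 0.394 and 0.918 from limma).

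Antiviral effectors had a median difference of 0.74 over 20 genes (0.35 without injury replicate 1 and 1.33 without injury replicate 2). By limma 2 were called higher and 0 lower. At an unadjusted p under 0.05 there were 11 higher and 0 lower, where 14.8% of all genes were higher. All 20 had higher means after injury (50.9% of all genes), and in 12 the groups did not overlap, with injury higher (31.6% of all genes). Of all genes 3.76% were called higher. *Rsad2* encodes viperin, an enzyme that makes a chain-terminating nucleotide, and lies on chromosome 12 of mm9 from 27127618 to 27141317. It was at -0.73 and -0.39 in the sham libraries and at 1.80 and 0.99 in the injury libraries. Both injury values stood clear of both sham values. For *Rsad2* injury exceeded sham by 1.95 (standard error 0.30, adjusted p = 0.0308 from limma). The adjusted p ranged from 0.0204 to 0.0406 over the alternatives with all 4 libraries.

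The oligoadenylate synthetases make the second messenger that activates RNase L. *Oas2* lies on chromosome 5 of mm9 between 121180342 and 121199862, and was at -0.76 and -0.45 after sham operation and at 1.33 and 0.50 after injury. Injury exceeded sham by 1.52 (standard error 0.30, adjusted p = 0.0454 from limma). The alternatives with all 4 libraries gave adjusted p-values from 0.0284 to 0.0555 from limma, past the threshold at the upper end. *Oas3*, the neighbouring gene from 121203107 to 121227670, was at -1.14 and -0.78 after sham operation and at 1.84 and 0.21 after injury. The difference of *Oas3* was larger, at 1.98, but its standard error was 0.52, and it was not called (adjusted p = 0.0764 from limma). *Oas1a*, in the same cluster, was at -0.89 and -0.62 after sham operation and at 1.02 and -0.19 after injury (difference 1.17, adjusted p = 0.125 from limma). *Oasl1* was at -0.86 and -0.37 against 1.45 and 0.082 (difference 1.38, adjusted p = 0.122 from limma). *Oasl2* was at -0.51 and -0.11 against 1.25 and 0.19 (difference 1.03, adjusted p = 0.140 from limma). All 5 genes had injury values above both sham values, and each had its highest value in injury replicate 1. Without injury replicate 1 the differences were 1.11 for *Oas2*, 1.17 for *Oas3*, 0.57 for *Oas1a*, 0.70 for *Oasl1* and 0.50 for *Oasl2*. Close copies exist for this family, so reads may have been divided among them.

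*Mx1* had the highest difference of the 49 genes with all 4 libraries, but *Rsad2* did without injury replicate 1, *Oas3* without injury replicate 2 and *Irf5* without sham replicate 1. It encodes a dynamin-like GTPase against influenza viruses, and the gene is defective in C57BL/6 mice. The sham values were -1.39 and -0.83 and the injury values 1.68 and 0.34, without overlap. The difference of 2.12 (standard error 0.46) missed the threshold with an adjusted p of 0.0539 from limma. With quantile normalization of the columns, and with columns scaled to one spread, *Mx1* was called (adjusted p = 0.0411 and 0.0388 from limma). *Mx2*, its neighbour on chromosome 16, was at -0.76 and -0.059 after sham operation and at 0.50 and -0.53 after injury. The groups of *Mx2* overlapped, its difference was 0.39 (adjusted p = 0.555 from limma), and without injury replicate 1 it was -0.12.

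The classical induced genes *Ifit1*, *Ifit3*, *Isg15* and *Usp18* were high in 1 library. *Isg15*, a ubiquitin-like modifier, was at -0.41 and 0.041 after sham operation and at 1.23 and -0.18 after injury. *Usp18*, the protease that removes ISG15 and dampens the receptor, was at -0.58 and -0.056 after sham operation and at 1.2 and -0.15 after injury. Their differences were 0.71 and 0.83 with standard errors of 0.47 and 0.45 (adjusted p = 0.364 and 0.285 from limma). *Ifit1*, which binds foreign RNA, was at -0.51 and 0.18 against 1.01 and -0.15 (difference 0.59, adjusted p = 0.407 from limma). *Ifit3*, its partner, was at -0.49 and 0.22 against 1.11 and -0.33 (difference 0.53, adjusted p = 0.530 from limma). In these 4 genes injury replicate 2 lay between the sham libraries, and without injury replicate 1 the differences were 0.0086 for *Isg15*, 0.17 for *Usp18*, 0.014 for *Ifit1* and -0.19 for *Ifit3*.

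*Ifit2*, in the same cluster on chromosome 19 of mm9 as *Ifit1* and *Ifit3*, did not share that overlap. It was at -0.31 and -0.40 after sham operation and at 1.70 and 0.37 after injury. The difference was 1.39 (standard error 0.42), with an unadjusted p of 0.0191 and an adjusted p of 0.102 from limma. The difference of *Ifit2* against that of its neighbours was not tested.

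Among the other effectors the groups did not overlap in *Bst2*, *Trim25*, *Parp14* and *Eif2ak2*. *Bst2* (tetherin, which holds budding virus at the membrane) was at -0.53 and -0.21 against 0.64 and 0.16, a difference of 0.77 (adjusted p = 0.0891 from limma). *Trim25*, the ubiquitin ligase that acts on RIG-I, was at -0.19 and -0.0016 against 0.50 and 0.35. It had the closest pair of injury libraries among the 20 effectors, and injury exceeded sham by 0.52 (standard error 0.15, adjusted p = 0.0913 from limma). *Eif2ak2* (PKR, a kinase that halts translation) was at -0.22 and -0.12 against 0.48 and 0.081 (difference 0.45, adjusted p = 0.168 from limma). *Parp14*, an ADP-ribosyltransferase, was at -0.014 and -0.051 against 0.95 and 0.018, so only injury replicate 1 was far from the sham libraries (difference 0.52, adjusted p = 0.328 from limma). *Ifi35*, *Ifi44* and *Xaf1* overlapped between groups, with differences of 0.22, 0.11 and 0.52 and adjusted p-values from limma of 0.620, 0.889 and 0.336.

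The Ifitm proteins block viral entry at membranes, and their genes lie together on chromosome 7 of mm9 from 148140736 to 148202791. Of the 4 genes 1 was called higher and 0 lower by limma, against 3.76% and 3.67% of all genes. *Ifitm6*, known from myeloid cells, was at -0.69 and -0.59 after sham operation and at 0.78 and 0.20 after injury, a difference of 1.13 (standard error 0.22, adjusted p = 0.0455 from limma). Its adjusted p from limma lay between 0.0355 and 0.0541 over the alternatives with all 4 libraries, so this call too was not kept in all of them. *Ifitm1* was at -0.44 and -0.41 after sham operation and at 1.14 and -0.32 after injury. For *Ifitm1* the difference of 0.83 was set by injury replicate 1, and without that library it was 0.10 (adjusted p with all 4 libraries 0.292 from limma). *Ifitm3* was at -0.12 and 0.14 against 0.26 and -0.28, a difference of -0.023 (adjusted p = 0.957 from limma). *Ifitm2* was at 0.15 and 0.25 after sham operation and at -0.011 and -0.35 after injury. Its difference was -0.38 (standard error 0.17), which was not called (adjusted p = 0.203 from limma). *Ifitm2* and *Ifitm3* are close copies, so reads could have been shared between them.

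The immunity GTPases, which act on the membranes around intracellular pathogens and are strongly induced by IFN-γ, were not called. Their median difference was 0.098 over 6 genes (-0.35 without injury replicate 1, -0.013 without sham replicate 1, 0.31 without sham replicate 2 and 0.63 without injury replicate 2). By limma 0 were called (7.43% of all genes) and 0 had an unadjusted p under 0.05 (29.5% of all genes). In all 6 injury replicate 2 lay under the higher sham library. *Gbp2* was at -0.26 and 0.21 after sham operation and at 0.98 and -0.34 after injury (difference 0.34, adjusted p = 0.653 from limma). *Gbp3* was at 0.31 and 0.43 against 0.48 and -0.19, and *Gbp7* at 0.30 and 0.27 against 0.38 and -0.097. These genes of the same cluster on chromosome 3 of mm9 had differences of -0.22 and -0.14 (adjusted p = 0.582 and 0.666 from limma). *Igtp* was at -0.31 and 0.24 against 1.02 and -0.16, and *Irgm1*, a regulator of the family, at -0.41 and 0.057 against 0.82 and -0.096. *Iigp1* was at -0.016 and 0.48 against 0.49 and -0.45. Differences were 0.46 for *Igtp*, 0.54 for *Irgm1* and -0.21 for *Iigp1* (adjusted p = 0.501, 0.344 and 0.726 from limma). For *Irgm1* it was 0.080 with injury replicate 1 left out and 1.0 with injury replicate 2 left out. In each of these the library with the highest value was injury replicate 1, and for *Iigp1* sham replicate 2 was nearly as high. Injury replicate 1 minus injury replicate 2 had a median of 0.93 over these 6 genes, beside 1.11 for the antiviral effectors and 0.33 for MHC class I loading.

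Of the 4 genes of MHC class I peptide loading 0 were called by limma, with 1 higher at an unadjusted p under 0.05. Of all genes 3.76% were called higher, and 14.8% were higher at that unadjusted p. In 4 of 4 both injury libraries lay above both sham libraries, which 31.6% of all genes did. *Tap1*, a subunit of the peptide transporter, was at -0.50 and -0.20 after sham operation and at 0.61 and -0.020 after injury. Injury exceeded sham by 0.65 (standard error 0.25), with an unadjusted p of 0.0445 and an adjusted p of 0.159 from limma. *Tap2*, the other subunit, was at 0.11 and 0.18 against 0.54 and 0.21 (difference 0.23, adjusted p = 0.403 from limma). *Tapbp* (tapasin) was at 0.044 and 0.18 against 0.56 and 0.30 (difference 0.32, adjusted p = 0.246 from limma). *B2m*, the invariant light chain of MHC class I, served as the reference gene for qRT-PCR of mouse tissues in the study. It was at -0.21 and -0.10 after sham operation and at 0.38 and 0.042 after injury. Both injury libraries lay above both sham libraries, by 0.37 between means (standard error 0.17), which was not called (adjusted p = 0.215 from limma).

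Other genes of the pathway were taken from lists of ligands, kinases and STAT proteins, negative regulators, sensors and their relay, further induced genes and MHC class I and immunoproteasome genes. Of 123 names 107 were analysed, and the 10 ligand genes were not analysed here. By limma 6 of the 107 were called higher and 0 lower, against 3.76% and 3.67% of all genes. At an unadjusted p under 0.05 there were 27 higher and 3 lower, where 14.8% of all genes were higher. The median difference was 0.29 (0.075 with injury replicate 1 left out, 0.56 with injury replicate 2 left out). Those called were *Ptpn6* (1.80), *Tlr7* (1.67), *Phf11a* (1.61), *Ikbke* (1.54), *Ifi30* (1.43) and *Unc93b1* (1.19), with adjusted p-values from 0.0291 to 0.0498 from limma. *Ptpn6* encodes the phosphatase SHP-1, *Tlr7* a receptor for single-stranded RNA, *Unc93b1* its chaperone, *Ikbke* a kinase upstream of IRF3 and *Ifi30* a lysosomal thiol reductase. Over the 107 genes injury replicate 1 was above injury replicate 2 in 100.

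Some marker genes of leukocytes were also called higher. Of all genes 3.76% were called higher and 3.67% lower by limma. At an unadjusted p under 0.05 the shares of all genes were 14.8% higher and 29.5% in either direction. Macrophage markers, 10 analysed of which 6 were called higher by limma, had sham medians of -1.17 and -1.20 and injury medians of 0.37 and -0.14. Monocyte markers (1 of 5 called) had medians of -1.60 and -0.68 against 1.0 and 0.085, and neutrophil markers (2 of 7 called) of -1.34 and -0.97 against 1.22 and 0.18. T and NK cell markers (1 of 5 called) had medians of -0.50 and -0.35 against 0.74 and -0.16. In the 4 lists injury replicate 1 had the higher median, as it did for the interferon response genes. For plasmacytoid dendritic cells, known as strong producers of type I interferon, 4 of 6 markers were analysed, *Bst2* among them, and 0 were called by limma, with 1 higher at an unadjusted p under 0.05. These values cannot be summed to a level and do not show which markers are near 0 reads. Smooth muscle markers (4 of 6 called lower by limma) had medians of 1.73 and 1.04 against -1.47 and -0.19. Also called lower were 4 of 8 fibroblast, 2 of 10 endothelial and 1 of 10 adipocyte markers. Of 5 dendritic cell, 1 B cell, 5 skeletal muscle and 6 proliferation genes limma called 0, with 4 higher and 3 lower at an unadjusted p under 0.05. In bulk tissue more cells of a type and more RNA per cell cannot be told apart, and the part of these cell types in the differences of the interferon response genes was not tested.

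**Figure D4:**
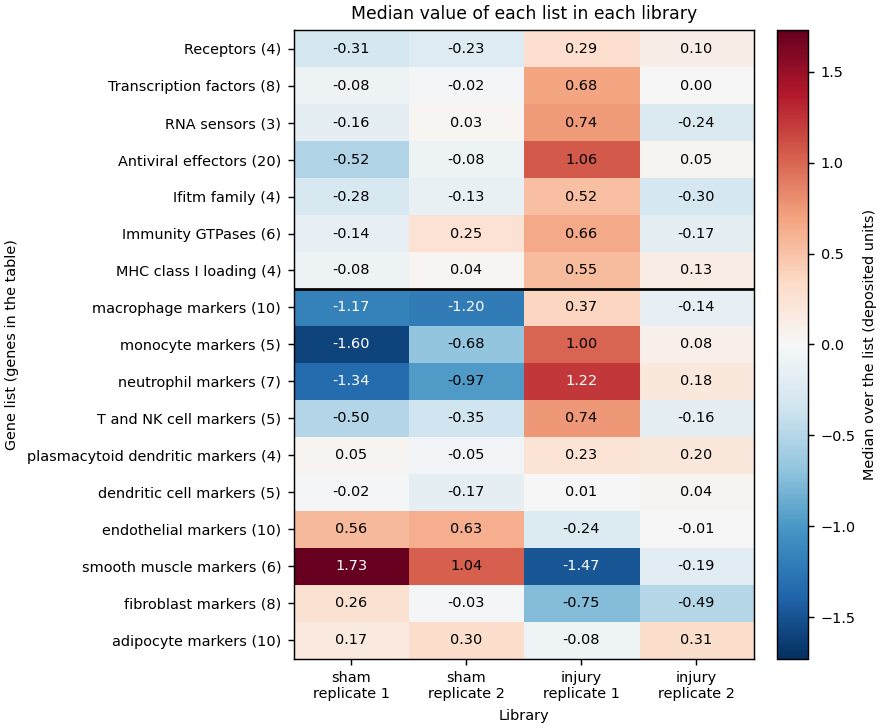
The median over each list (y axis, with the number of genes analysed) in each library (x axis), in deposited units given by colour and in figures, for the roles above the line and cell type markers below it. Macrophage markers differ between both injury and both sham libraries, while the GTPases are higher in injury replicate 1 (0.66) and not in injury replicate 2 (-0.17).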

How the data were processed

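RNA-seq libraries of PVAT, 2 after wire injury and 2 after sham operation, were prepared by the authors with a stranded kit for mRNA (480 ng of RNA as input). Per the submitters' processing notes the tools were FastQC 0.11.8, Cutadapt 1.18, Trimmomatic 0.39, STAR 2.6.0a on mm9, featureCounts and DESeq2 1.28.0 in R 3.6.0. The values the authors deposited are scores, signed decimals for 12661 genes and not counts. The step from counts to these scores and any filter on genes are not given in the sources used here, so depth is unknown and no interval from counts is given.

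Groups were compared with limma 3.58.1 in R 4.3.3 (lmFit and eBayes, group as the only term, no trend, two-sided, Benjamini-Hochberg over all genes, threshold 0.05). Residual degrees of freedom were 2 and prior ones 3.48. The fit was also run on simulated data with independent noise per gene and the same shift in both injury libraries. Those data lacked the gap between injury libraries seen here, so they cannot test its effect on the calls. The genes and lists were chosen with earlier results of these data known. The rule for naming genes was that every gene of the list is accounted for, with values in each library for called genes, receptors, factors and at least 1 gene per role whose groups overlap or whose size rests on 1 library, and that called genes of the pathway lists are named, up to the 10 of largest size. Alternatives were each library left out in turn, a block for replicate number, a threshold of 0.1, columns scaled to one spread, quantile normalization, a robust prior, identical rows counted once and a minimum difference of 1 unit. Gene coordinates are from GENCODE on mm9. Motifs were searched in RefSeq promoter windows. Tables and plots used pandas 2.3.3, numpy 2.4.6 and matplotlib 3.10.9 in Python 3.11.15.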

Additional observations from a re-analysis of the deposited data

How the results depend on the processing

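Among the 49 genes 5 were called as reported, and the same 5 with a robust prior and with identical rows counted once. Quantile normalization and columns scaled to one spread gave 6, the same 5 with *Mx1*. A threshold of 0.1 gave 10 of the 49, 2317 of all genes in place of 941 and 18 of the other pathway genes in place of 6. A minimum difference of 1 unit gave 4 of the 49, without *Ifngr2*, and 591 of all genes. The labels do not say whether same-numbered libraries share more than a number. The correlation over genes of their deviations was -0.094, which cannot decide this. With the replicate block 2 of the 49 were called, *Rsad2* and *Irf5*, and 684 of all genes, of which 579 were called without it. The adjusted p of *Ifngr2*, *Ifitm6* and *Oas2* was then 0.0510, 0.0541 and 0.0555 from limma.

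With each library left out in turn, 0 to 21 of the 49 genes were called, 0 to 1790 of all genes and 0 to 42 of the other pathway genes. The groups did not overlap in 28 to 48 genes (57.1% to 98.0%), where 77.8% to 84.0% of all genes did not in the same fits, and the median difference was 0.16 to 0.96. Of the 49 genes, 15 changed sign in at least 1 of these fits, 11 of them without injury replicate 1. The ranges were -0.25 to 0.33 for *Ifih1*, -0.016 to 0.066 for *Irf3*, -0.48 to 0.69 for *Ifi44*, -0.30 to 0.25 for *Ifitm3*, -0.68 to 0.26 for *Iigp1* and -0.027 to 0.68 for *Stat2*. They were -0.12 to 0.38 for *Irf9*, -0.027 to 0.98 for *Dhx58*, -0.19 to 1.25 for *Ifit3*, -0.12 to 0.91 for *Mx2*, -0.12 to 0.55 for *Ifi35* and -0.32 to 1.0 for *Gbp2*. They were -0.12 to 1.05 for *Igtp*, -0.56 to 0.11 for *Gbp3* and -0.39 to 0.096 for *Gbp7*. Without a change of sign, *Parp14* ran from 0.051 to 0.98, *Xaf1* from 0.15 to 0.89 and *Ddx58* from 0.17 to 0.80. None of the 15 was called with all 4 libraries. *Ifih1* also changed sign with columns scaled to one spread (-0.0025). Which gap between libraries comes from the animals and which from the tissue taken was not tested, and 2 libraries per group limit every estimate of spread.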
